A study of Mus musculus with 2 samples.

Results

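The genes described are those of the cytosolic ribosomal proteins, the protein components of the ribosomes that translate nuclear messages. A probe set, the group of short oligonucleotides that reads 1 transcript on the array, was taken when its annotation held exactly 1 gene symbol and that symbol was Rps or Rpl with a number, Rpsa, Rplp0, Rplp1 or Rplp2. The Rps6k kinases, pseudogenes and the binding protein gene Rps19bp1 were left out. This gave 105 of 45037 probe sets and 49 of 18193 genes with a probe set of their own, 23 named for the small and 26 for the large subunit. Skeletal muscle RNA was measured on 2 Affymetrix 430 2 arrays: 1 for Jhdm2a null mice and 1 for wild-type mice. Both groups were male, 3 months old, and came from 129 ES cells backcrossed onto C57BL/6 over 4 generations. Each array held RNA combined from 3 mice, so there is no replicate check and no test, and the number of arrays limits the precision. The labels do not say which muscle was taken or how the Jhdm2a allele was disrupted.

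Jhdm2a, now named Kdm3a, encodes a demethylase of lysine 9 of histone H3. Its 1 probe set read 488 on the array labelled null and 406 on the array labelled wild-type, a log2 ratio of 0.26, and the labels do not state whether that probe set lies in the part that was disrupted. The arrays are therefore called null-labelled and wild-type-labelled, and every direction rests on these labels. The tissue label was met by its markers, since 15 of 15 skeletal muscle markers were above the signal floor on both arrays. Of these markers 14 were higher in null-labelled muscle and 1 was lower, with a median log2 ratio of 0.18 and sums of 309454 in null-labelled muscle and 276050 in wild-type-labelled muscle. Markers of other cells differed more. All 13 adipocyte markers with a probe set were lower in null-labelled muscle, with a summed signal of 21898 there, against 126394 in wild-type-labelled muscle. All 13 hepatocyte markers were lower too, with sums of 1907 in null-labelled muscle and 23655 in wild-type-labelled muscle. All 10 neutrophil markers were higher, with sums of 9105 in null-labelled muscle and 1345 in wild-type-labelled muscle. No marker stood at 0. The part of these cells in the ribosomal protein values was not tested, and in bulk tissue fewer cells of a type cannot be told apart from less RNA per cell.

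A ribosome joins a small subunit, which reads the message, and a large subunit, which forms peptide bonds. Nearly all of their proteins are needed in equal numbers, and most of their messages begin with a run of pyrimidines, the terminal oligopyrimidine or TOP motif, through which mTOR signalling controls their translation. Mammals carry many processed pseudogene copies of these genes, and a few genes encode tissue-restricted relatives of the standard proteins. In mouse heart and skeletal muscle the relative Rpl3l takes the place of Rpl3 in many ribosomes.

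To show what a TOP start looks like, the 15 bases before and the 15 bases from the annotated transcript start are given for the 5 members with the longest run among those that start with a C followed by at least 4 bases that are each C or T, and for 2 members without such a start. Only 8 of 40 members with a sequence had that start at the annotated base. Rpl22l1, given below as lacking it there, has such a start within 5 bases of the annotated base. Capitals mark the unbroken run of C and T from the start base. Sequences are from RefSeq, build GRCm38.p6, written 5′ to 3′ on the strand of the gene.
Rpl35 (chr2:39005117-39005146, minus strand): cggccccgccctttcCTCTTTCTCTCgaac
Rps10 (chr17:27635230-27635259, minus strand): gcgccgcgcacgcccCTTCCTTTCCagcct
Rps18 (chr17:33955651-33955680, minus strand): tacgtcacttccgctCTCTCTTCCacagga
Rps6 (chr4:86857353-86857382, minus strand): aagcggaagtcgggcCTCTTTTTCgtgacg
Rpl38 (chr11:114668565-114668594, plus strand): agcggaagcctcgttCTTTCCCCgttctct
Rpl22l1 (chr3:28805493-28805522, plus strand): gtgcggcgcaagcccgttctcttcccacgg
Rpl3l (chr17:24727811-24727840, plus strand): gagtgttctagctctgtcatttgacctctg

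The ribosomal protein messages read nearly alike on the arrays. A probe set counted as measured when it was above a signal of 182, the 60th percentile of all probe sets, on both arrays, and each gene was given the average log2 ratio, null-labelled over wild-type-labelled, of such probe sets. Of the 49 genes 45 were measured, through 84 probe sets. None of the 45 reached 1.5-fold higher, beside 3.38% of the 9696 measured genes, and none reached 1.5-fold lower, beside 6.34%, which makes 9.73% in both directions together. The median log2 ratio was 0.11, beside 0.04 over all measured genes. The values ran between -0.25 for Rpl7l1 and 0.47 for Rpl22l1, with an SD over genes of 0.16, beside 0.46 over all measured genes. Above 0 lay 33 of the 45, beside 55.7% of all measured genes.

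These genes are among the brightest on the arrays, and bright genes as a whole leaned the same way. The 84 measured probe sets read between 207 and 23330 in null-labelled muscle, with a median of 9205, and between 196 and 22394 in wild-type-labelled muscle, with a median of 8561. Of the 45 genes, 36 lay in the brightest 10% of measured genes. All 970 genes of that class had a median of 0.13 on the log2 scale with 70.8% above 0, while for the 36 ribosomal protein genes among them it was 0.15 with 27 above 0. Within that class 7.32% of genes were past 1.5-fold in either direction, and 0 of the 36 were. When the trend of log2 ratio on signal was removed by a loess curve, the median of the 45 was 0.03 and 24 were above 0, so the small positive median is not read as a direction.

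**Figure D1:**
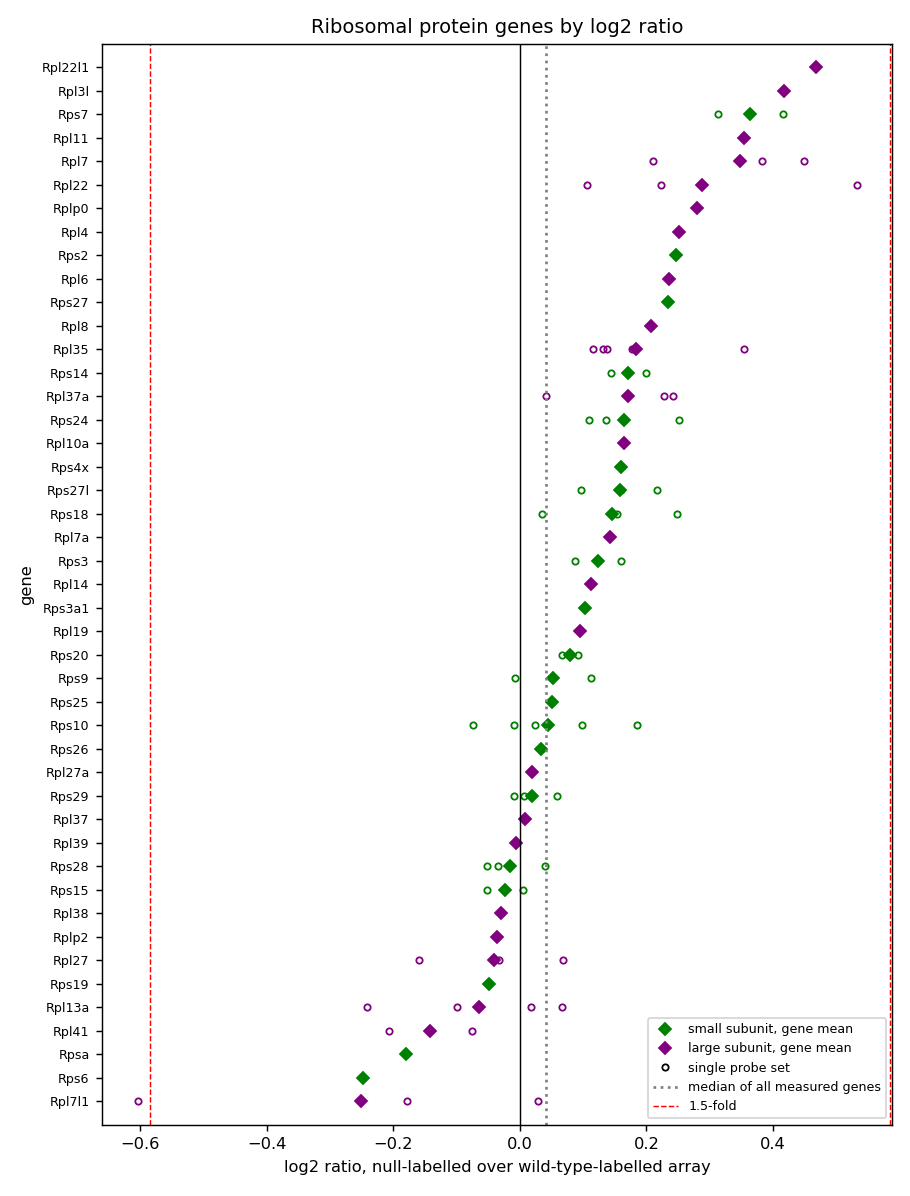
Log2 ratio, null-labelled over wild-type-labelled array, of the 45 measured ribosomal protein genes in rank order; diamonds are gene means, open circles the single probe sets of genes with several, green the small and purple the large subunit. All 45 diamonds lie inside the dashed 1.5-fold lines, between -0.25 and 0.47, and 1 probe set, of Rpl7l1, lies outside them at -0.60.

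**Figure D2:**
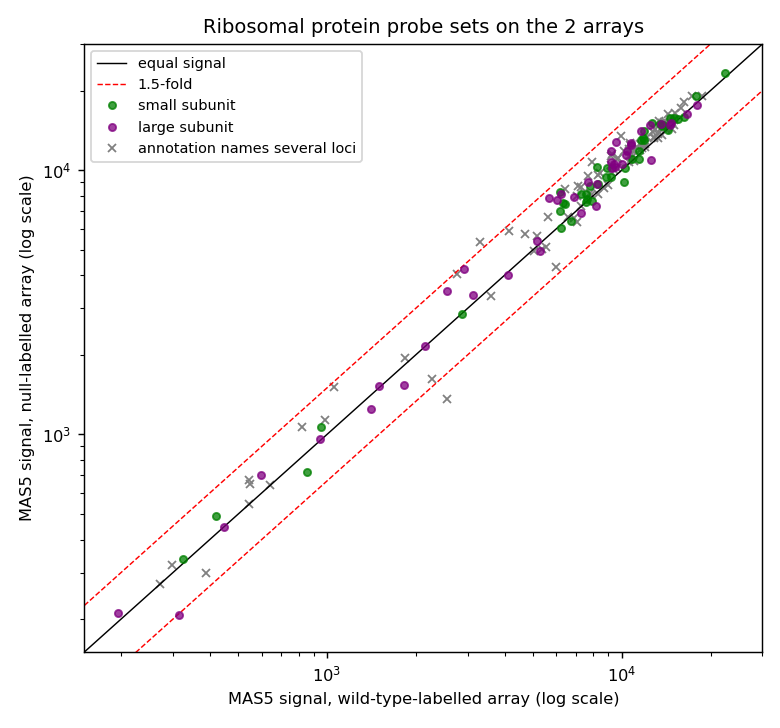
MAS5 signal of each measured ribosomal protein probe set on the null-labelled (vertical) and wild-type-labelled (horizontal) array, both on log scales; grey crosses are probe sets whose annotation joins a ribosomal protein gene with other loci. The points follow the line of equal signal, with medians of 9205 in null-labelled muscle and 8561 in wild-type-labelled muscle.

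A threshold of 1.2-fold, added after the values were seen, was reached upward by 7 of the 45 genes, beside 21.8% of all measured genes, and downward by none, beside 18.2%. Of the 7 ribosomal protein genes, 6 belong to the large subunit, which has 24 of the 45 measured genes. The 6 include the paralog forms Rpl22l1 and Rpl3l. Rpl22l1, a relative of Rpl22, was the highest, at 7837 in null-labelled muscle and 5663 in wild-type-labelled muscle, 1.38-fold higher. Rpl11, which with Rpl5 binds the 5S RNA of the large subunit and can hold back the p53 ligase Mdm2, read 7701 in null-labelled muscle and 6025 in wild-type-labelled muscle, 1.28-fold higher. Rps7, a small subunit protein needed for processing of the small ribosomal RNA, read 10228 and 8250 in null-labelled muscle in its 2 probe sets, against 8235 and 6186 in wild-type-labelled muscle. Both of its probe sets were higher, and their mean log2 ratio was 0.36 ± 0.07 (SD of 2 probe sets). Rpl7, a large subunit protein with a counterpart in bacterial ribosomes, had 0.35 ± 0.12 (SD of 3 probe sets), all 3 above 0. Rpl3l, the muscle form of Rpl3 described with its counterpart further on, had 0.42. These SDs describe probe sets and not mice.

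The other members of the 7 were Rpl22, 1.22-fold higher with a log2 value of 0.29 ± 0.22 (SD of 3 probe sets), and Rplp0. Rplp0, the base of the stalk that recruits elongation factors, read 14102 in null-labelled muscle and 11615 in wild-type-labelled muscle, a log2 ratio of 0.28. The next 5 genes were 1.15-fold to 1.19-fold higher. Rpl4, which lines the exit tunnel of the nascent chain, read 14863 in null-labelled muscle and 12481 in wild-type-labelled muscle, a log2 ratio of 0.25. Rps2, at the entry of the message channel, had 0.25, Rpl6 had 0.24 and Rps27, a zinc finger protein of the small subunit, had 0.23. Rpl8, near the peptidyl transferase centre, had 0.21.

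At the other end, 12 genes were below 0, the lowest by 1.19-fold. Rpl7l1, a relative of Rpl7 that acts in ribosome assembly, read 962, 1250 and 207 in its 3 probe sets in null-labelled muscle, against 943, 1415 and 315 in wild-type-labelled muscle. Its mean of -0.25 ± 0.32 (SD of 3 probe sets) rested on the dimmest of these, which read close to the floor and had -0.60. Rps6, the target of the S6 kinases, read 720 in null-labelled muscle and 856 in wild-type-labelled muscle in its 1 probe set, a log2 ratio of -0.25. The 8 measured probe sets whose annotation joins Rps6 with the pseudogene Rps6-ps4 averaged 0.05 ± 0.28 (SD), and 6 of the 8 were above 0, so the value of Rps6 differs in sign with the probe set used. Rpsa, which is also known as the laminin receptor, read 8997 in null-labelled muscle and 10196 in wild-type-labelled muscle, a log2 ratio of -0.18. Rpl41, the shortest ribosomal protein, had -0.14 ± 0.09 (SD of 2 probe sets). The next were Rpl13a at -0.06, Rps19, the gene most often mutated in human Diamond-Blackfan anaemia, at -0.05, Rpl27 and Rplp2 at -0.04, Rpl38 at -0.03 and Rps15 at -0.02. All 6 differed by less than 1.05-fold.

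Of the 49 genes, 4 had no measured probe set. Rps4l, a relative of Rps4x, was above the floor in wild-type-labelled muscle only, at 108 in null-labelled muscle and 400 in wild-type-labelled muscle, at least 2.20-fold lower when set against the floor. Rpl39l, a relative of Rpl39 best known from mouse testis, was above the floor in null-labelled muscle only, at 274 there and 129 in wild-type-labelled muscle. Rpl12 and Rps16 had probe sets of their own at or below 109 on both arrays. Probe sets that join them with other loci read between 5870 and 8733 for Rpl12 in null-labelled muscle and between 4140 and 7117 in wild-type-labelled muscle. For Rps16 such probe sets read between 11845 and 15231 in null-labelled muscle and between 11099 and 14156 in wild-type-labelled muscle. An absent signal on a probe set of its own thus does not say that these 2 messages were absent. In all, 19 of the 105 probe sets were below the floor on both arrays, among them 3 of the 6 for Rps18.

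Above the floor, the muscle form and the general form of the protein Rpl3 differed in opposite directions. Rpl3l read 12718 in null-labelled muscle and 9525 in wild-type-labelled muscle, 1.34-fold higher, a log2 ratio of 0.42. Rpl3, which sits close to the peptidyl transferase centre, had no probe set of its own. The 1 measured probe set annotated to it together with the predicted locus Gm12816 read 4284 in null-labelled muscle and 5989 in wild-type-labelled muscle, 1.40-fold lower, a log2 ratio of -0.48. The difference of the log2 ratios was 0.90. The pooled SD between probe sets of a gene was 0.29 over 3719 genes. It describes single probe sets and not mice, and a difference between 2 probe sets spreads more widely. Each of the 2 log2 ratios comes from 1 probe set and 1 array per genotype, and the share of Gm12816 in the Rpl3 signal is not known. Another probe set joined to Rpl3 and 2 such loci was below the floor on both arrays, at 102 in null-labelled muscle and 38.4 in wild-type-labelled muscle. When no floor was used and a pseudocount was added, the Rpl3 value was 0.32 and the difference was 0.10, so the opposite direction rests on leaving the dim probe set out. Skeletal muscle markers, with a median of 0.18, moved the same way as Rpl3l, and their part was not tested. Adipocyte and hepatocyte markers, all lower in null-labelled muscle, moved the same way as the Rpl3 probe set, and their part in it was not tested.

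**Figure D3:**
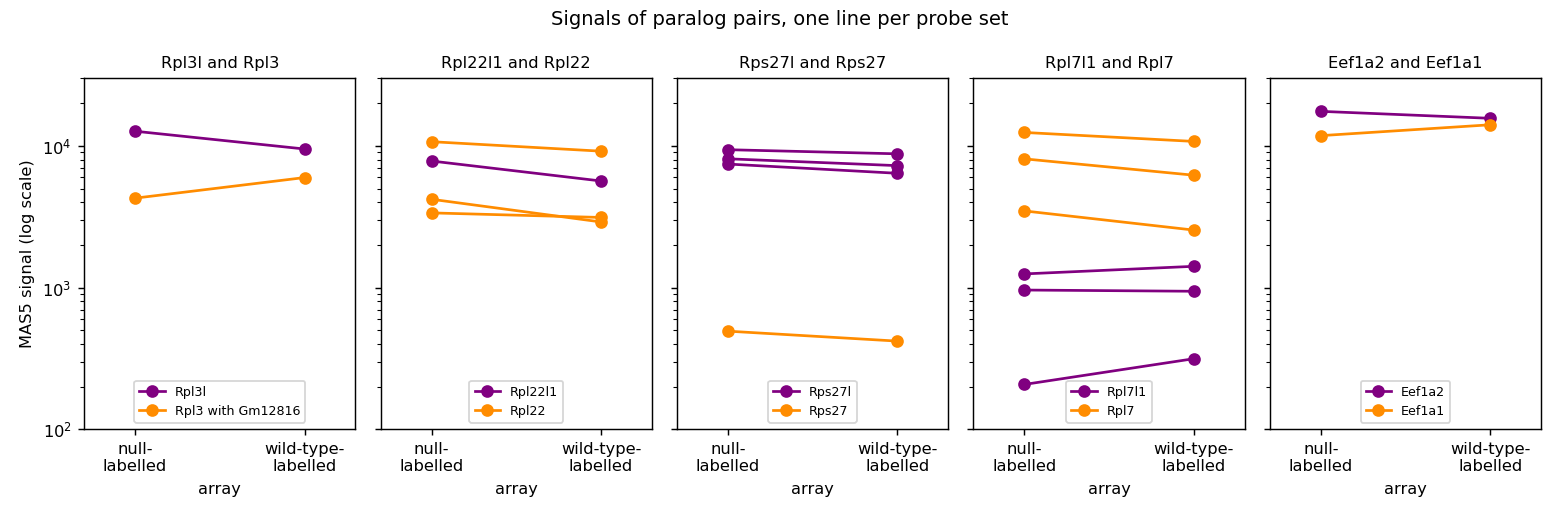
MAS5 signal (log scale) on the null-labelled (left) and wild-type-labelled (right) array for pairs of related genes, 1 line per probe set; heights of different probe sets cannot be compared, only slopes. The lines slope in opposite directions for Rpl3l and the Rpl3 probe set, for Eef1a2 and Eef1a1 and for 2 of the 3 probe sets of Rpl7l1 against those of Rpl7, and run the same way for Rpl22l1 with Rpl22 and Rps27l with Rps27.

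Of the other pairs of relatives, the widest apart were Rpl7l1 and Rpl7, at -0.25 and 0.35, a difference of -0.60, with the spread between probe sets given above. Rpl22l1 and Rpl22, whose proteins share a place on the large subunit and of which Rpl22 is known in mice to lower the message of Rpl22l1, were both higher, with log2 ratios of 0.47 and 0.29. The probe sets of Rpl22 read 4208, 3372 and 10729 in null-labelled muscle, against 2909, 3131 and 9195 in wild-type-labelled muscle. All 3 were higher, by log2 ratios between 0.11 and 0.53. Rps27l, a p53-responsive relative of Rps27, had 0.16 ± 0.06 (SD of 3 probe sets) and Rps27 0.23. Rpl39, a small protein of the exit tunnel, had -0.01, and Rps4x, the X-linked relative of Rps4l, 0.16. A comparable exchange of forms is known for elongation factor 1 alpha, where muscle and neurons use Eef1a2 and most other cells Eef1a1. Eef1a2, named here after its value was seen, read 17572 in null-labelled muscle and 15690 in wild-type-labelled muscle, a log2 ratio of 0.16. Eef1a1 read 11836 in null-labelled muscle and 14124 in wild-type-labelled muscle, a log2 ratio of -0.25, which leaves a difference of 0.42 between the forms.

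Within the family, the subunits and functional groups overlapped widely. The 21 measured small subunit genes had a median of 0.08 and ran between -0.25 and 0.36. The 24 large subunit genes had a median of 0.15 and ran between -0.25 and 0.47. The 18 measured members with counterparts in bacterial ribosomes had a median of 0.16, with 15 above 0. The 11 measured genes whose human counterparts are mutated in Diamond-Blackfan anaemia, an inherited failure of red cell production, had a median of 0.04, between -0.05 for Rps19 and 0.36 for Rps7. Of 10 ribosomal protein genes often used as references in quantitative PCR, 8 were measured, with a median of 0.12. They ran between -0.06 for Rpl13a and 0.35 for Rpl7, and Rpl19, Rps18 and Rps29 had 0.09, 0.15 and 0.02. Of the stalk proteins, Rplp0 had 0.28 and Rplp2 -0.04. These medians, like that of the family, stand beside 0.04 over all measured genes, of which 55.7% were above 0. Over the brightest 10% of measured genes the median was 0.13, with 70.8% above 0.

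Where a gene had several probe sets, these spread less than over all genes, but nearly as much as the ribosomal protein genes did among themselves. Over 20 such genes the pooled SD between probe sets was 0.12, beside 0.29 over all genes with several. The SD over the 45 genes was 0.16, so the order of the genes is loosely set. No value was computed for other genes of like signal. In 12 of the 20 all probe sets had the same sign, and in 8 they did not. The share over all genes with several was not computed. Rpl35 had 5 measured probe sets, all above 0, with 0.18 ± 0.10 (SD). Rps24 had 4, all above 0, with 0.17 ± 0.06 (SD). Rps29 read 14212, 15579 and 23330 in null-labelled muscle, against 14309, 15512 and 22394 in wild-type-labelled muscle, and its log2 ratios lay between -0.01 and 0.06. Rps10 had 5 measured probe sets with ratios between -0.07 and 0.19. The widest ranges belonged to Rpl7l1 with 0.63, Rpl22 with 0.43, Rpl13a with 0.31, Rps10 with 0.26 and Rpl7 with 0.24. The 37 measured probe sets whose name ends in _x_at, a mark for probes that may also read other transcripts, had a median of 0.09, and the 17 that end in _at alone had 0.05.

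A further 110 probe sets join a ribosomal protein gene with pseudogenes, predicted loci or neighbours, and the rule did not use them. Of these, 95 were measured, with a median log2 ratio of 0.10, and 78 were above 0 (82.1%). Above 0 lay 55.6% of all measured single-symbol probe sets and 70.8% of genes in the brightest class. The 84 members' probe sets had a median of 0.10 as well. Past 1.5-fold were 1 higher, a probe set of Rps7 with Gm7285 at 0.70, and 1 lower, a probe set of Rpl13 with Tax1bp3 at -0.91, beside 5.31% and 6.73% of single-symbol probe sets. The other 3 measured probe sets that name Rpl13 lay above 0. Through these shared probe sets values were had for standard ribosomal proteins with no probe set of their own. Rpl5, the partner of Rpl11, had 0.34 ± 0.12 (SD of 3 probe sets), Rpl15 0.43 ± 0.17 and Rpl34 0.26 ± 0.26 (SD of 2 probe sets each). Rpl9, Rps12 and Rps21 had 0.03, 0.04 and -0.01.

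Start sequences and motifs were matched for 40 of the 45 measured genes, and Rpl7, Rpl8, Rps14, Rps20 and Rps29 were not in the sequence table. A TOP start, as defined above, stood exactly at the annotated start in 8 of the 48 promoter windows of these genes (16.7%), beside 2.51% of all 32851 windows. Within 5 bases of the start it was found in 41.7% of their windows, beside 18.3% of all. Counted by gene and set beside the 7874 measured genes with a sequence, the exact start was in 20% of the members and 3.20% of measured genes, and the start within 5 bases in 47.5% and 24.4%. The 8 genes with the exact start, Rpl14, Rpl35, Rpl38, Rplp2, Rps10, Rps18, Rps27 and Rps6, had a median log2 ratio of 0.08 and ran between -0.25 and 0.23. The 32 without it had a median of 0.11 and ran between -0.25 and 0.47. The letters CCGGAAG, the core bound by ETS factors such as GABP, were found on either strand in 41.7% of the windows of 300 bases, beside 8.86% of all. The letters AAGATGG, the core of YY1 sites, were in 14.6%, beside 6.34%, and TATAAA was in 12.5%, beside 13.6%. By gene, the ETS letters were in 50% of the members and 20.4% of measured genes, the YY1 letters in 17.5% and 8.90%, and TATAAA in 15% (6 of 40) and 9.13%, so for TATAAA the order depends on the background. The ETS and YY1 letters can overlap by AAG. Both windows of Rpl3l held none of the 3 motifs and no TOP start. The 20 genes with the ETS core had a median log2 ratio of 0.05 and the other 20 had 0.15, with ranges that overlapped. A match is a description of letters and not a bound site.

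The other genes of translation are read beside the 3.38% of all measured genes that were at least 1.5-fold higher and the 6.34% that were at least 1.5-fold lower. The 76 mitochondrial ribosomal protein genes, which build the ribosomes inside mitochondria, had a median of 0.06 and 0 of them were past 1.5-fold; they ran between -0.38 for Mrpl10 and 0.54 for Mrpl32. Of 32 measured initiation factors, 2 were at least 1.5-fold higher and 0 lower, with a median of 0.16. Eif2b1, a subunit of the exchange factor that recharges eIF2, read 1072 in null-labelled muscle and 632 in wild-type-labelled muscle, a log2 ratio of 0.76. Eif3m, a subunit of the scaffold factor eIF3, had 0.72. The lowest of them was Eif3b, another eIF3 subunit, at -0.40. The 8 measured elongation factors had a median of 0.06, with Eef1e1, an auxiliary protein of transfer RNA synthetases, the highest at 0.27. Of 40 ribosome assembly factors 1 was past 1.5-fold higher, Ltv1, which helps the small subunit leave the nucleus, at 0.59, and the median was 0.09. Nucleophosmin, Npm1, had 0.44.

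Genes upstream of ribosome production gave medians near that of all genes. The 11 measured genes of RNA polymerase I, which transcribes the ribosomal RNA, and its factors had a median of -0.04. The lowest were Polr1d at -0.41 ± 0.26 (SD of 4 probe sets, all below 0) and Polr1c at -0.30 ± 0.12 (SD of 2 probe sets). The 18 measured genes of mTOR and S6 kinase signalling had a median of 0.07, with 0 past 1.5-fold in either direction. Mtor, the kinase itself, had -0.40, Tsc2, which holds mTOR back, had 0.56, and Eif4ebp1, the translation repressor that mTOR switches off, had -0.54. In the same list Rheb had 0.36, Rps6kb2 0.40 and Deptor -0.31 ± 0.43 (SD of 5 probe sets), and 11 of the 18 genes were above 0. Message levels do not measure mTOR signalling, and a difference in it was not tested. The probe sets of Eif4ebp1 read 1715, 292 and 4011 in null-labelled muscle, against 2674, 338 and 6865 in wild-type-labelled muscle, and 2 of the 3 were past 1.5-fold lower while their mean was not. The small subunit protein Fau, which is made as a fusion with a ubiquitin-like peptide, read 7723 in null-labelled muscle and 7741 in wild-type-labelled muscle.

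**Figure D4:**
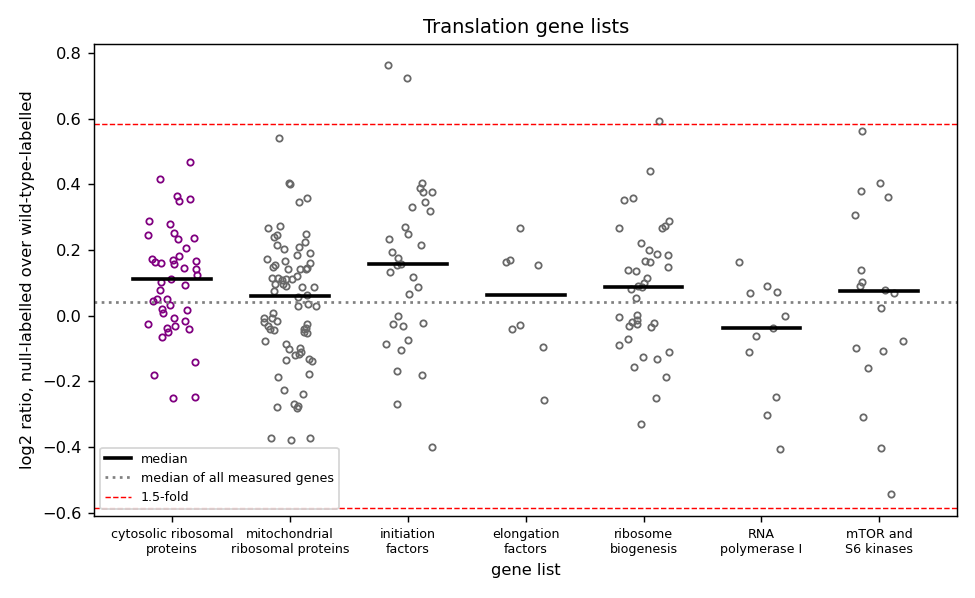
Log2 ratio, null-labelled over wild-type-labelled array, of each measured gene (circles) in 7 lists, with list medians as bars, the median of all measured genes as a dotted line and 1.5-fold as dashed lines. The cytosolic ribosomal protein genes lie between -0.25 and 0.47, and the circles past the upper dashed line are Eif2b1, Eif3m and Ltv1.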

How the data were processed

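The deposited table holds linear signal intensity for each probe set, made with MAS5 per the submitters' processing notes (version not stated). Its 2% trimmed mean was 500.003 on either array, so no further scaling was applied. It carries no detection calls, so a floor at the 60th percentile of the 45037 non-control probe sets of both arrays was used. The 64 control probe sets and 0 columns of other samples were left out. Platform annotation gave 1 symbol to 34945 probe sets, several to 932 and none to 9160. Annotated gene names can be old.

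Groups came from the source label of each sample. With 1 pooled array per genotype no test was run. Log2 ratios, medians and counts were computed in Python 3.11.15 with pandas 2.3.3 and statsmodels 0.14.6. Recovery of median log2 ratios was tried on simulated data under most settings, not with _at probe sets alone. The planted effects were larger than that of any measured member, so ratios as small as theirs, and the counts, were not checked. The members and lists were chosen with earlier results of these data known. Genes named are the 10 highest and lowest members, unmeasured members, paralog forms and their parents, reference, stalk and 5S genes, members whose probe sets differ most, and the extremes of the other lists. Rpl8, Rpl35, Rps24, Eef1a2, Fau, Mtor, Rheb, Rps6kb2, Deptor, Eif3b and Mrpl10 were named after their values were seen. So were the genes read only through shared probe sets and those of the motif paragraph. The list of standard ribosomal proteins was also written then. Motifs were searched in windows of 250 bases before and 50 after each RefSeq start. Alternatives were quantile normalization, median centring, loess with a span of 0.4, a floor at the 75th percentile, no floor with a pseudocount of 16, other summaries over probe sets, and _at probe sets alone.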

Additional observations from a re-analysis of the deposited data

How the results depend on the processing

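No paired analysis was possible because each genotype had 1 array, and no array could be left out. The median log2 ratio of the ribosomal protein genes stayed above 0 under all alternative settings run, and as above it is not read as a direction. After quantile normalization all measured genes had a median of 0.05, and 28 of the 45 members were above 0. Median centring set all measured genes to 0 and left 29 of the 45 above 0. After loess all measured genes had -0.005, with 24 of the 45 above 0. The median of the ribosomal protein genes moved to 0.031 after loess. Only this shift exceeded a technical error of 0.054, which was set from the pooled SD of 0.29 between probe sets over all genes. The family median also fell from 0.11 to 0.07 after quantile normalization, after median centring, without a floor (49 genes) and with _at probe sets alone. The last covers only 15 genes and is no check on the whole family. With the floor at the 75th percentile it was 0.12 over 41 genes. The family's own pooled SD between probe sets was 0.12, beside 0.29 over all genes. An error set from the family's SD would be smaller, so the smaller shifts are not called within error. No gene passed 1.5-fold except in the following cases. Without a floor and with a pseudocount, 1 of 49 genes was higher and 3 were lower, because probe sets under the floor then enter. With probe sets in place of genes, 1 of 84 was lower. With a threshold of 1.2-fold, chosen after seeing the data, 7 genes were higher, beside 21.8% of all measured genes. The difference between Rpl3l and the Rpl3 probe set was 0.10 without a floor, since the dim Rpl3 probe set then enters, and it had no value when probe sets with an added letter were left out. In 323 of 326 gene values the shift was under 0.29, the pooled SD between probe sets over all genes. That limit is loose, since it exceeds the SD of 0.16 over the ribosomal protein genes, and a shift under it can change a sign. Of the 45 genes 30 kept their sign in all alternatives that gave them a value, 22 of them above 0. The other 15 did not, Rps9 under the most settings. Such counts were not made for other genes. In the main setting 70.8% of genes in the brightest class lay above 0. The 22 are therefore not read as a trait of the ribosomal protein genes. With shared probe sets added, or without the paralog forms, the median was 0.13 or 0.10. Signals near the floor limit Rpl14, Rps25, Rps27 and Rpl39 as read by their own probe sets.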

Other observations

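Of 77 standard ribosomal proteins written from memory of the family, 43 had a probe set with 1 symbol, 27 were read only through probe sets that also name other loci, and 7 matched no annotated probe set here. The gene of the binding protein Rps19bp1, outside the family, read 309 in null-labelled muscle and 374 in wild-type-labelled muscle, a log2 ratio of -0.27.

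Leukocyte markers were split, with 4 of 12 higher in null-labelled muscle and summed signals of 6249 there and 7102 in wild-type-labelled muscle. Of 12 proliferation markers with a probe set 7 were higher, with sums of 3761 in null-labelled muscle and 2907 in wild-type-labelled muscle, and 4 were above the floor on each array. Erythroid markers had sums of 1591 in null-labelled muscle and 772 in wild-type-labelled muscle over 6 genes, 4 of them higher and 2 lower, with 2 above the floor in null-labelled muscle and 3 in wild-type-labelled muscle. The part of these cells in the ribosomal protein values was not tested.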
